A study of Mus musculus with 25 samples.

Results

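The circadian clock and PAR bZip genes described here are 10 mouse genes, chosen by name as clock and clock-output transcription genes: Per1, Per2, Per3, Cry1, Clock, Nr1d1, Nr1d2, Dbp, Tef and Hlf. They are 10 of the 36528 gene IDs counted. The counts come from 25 RNA libraries of cells sorted from mouse brain at 6 months of age. The 6 P301S neuron libraries and 8 non-Tg neuron libraries were made from cells sorted with the neuronal marker NeuN, and the 5 P301S astrocyte libraries and 6 non-Tg astrocyte libraries from cells sorted with the astrocyte marker Gfap. P301S stands for a human tau (hMAPT) transgene with the P301S mutation, and non-Tg for non-transgenic littermates. The labels give neither the promoter of the transgene, nor the sex, nor the time of day at which brains were collected, nor whether 1 animal or several went into a library. The p-values therefore measure the spread between these libraries, which may be technical. Neuron and astrocyte libraries are not tied to animals in the labels and were treated as independent.

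As background, the circadian clock of mammalian cells is a transcriptional loop. CLOCK, paired with BMAL1 (the product of Arntl) and binding E-box motifs, turns on the Per and Cry genes, whose products later block that pair. The same pair turns on Nr1d1 and Nr1d2, which encode the nuclear receptors REV-ERBα and REV-ERBβ that repress Arntl, and Dbp. DBP, TEF and HLF are the PAR bZip factors, activators that bind D-box motifs and carry the rhythm to output genes. Per1 is also a cAMP-responsive immediate early gene in neurons, and astrocytes hold a working clock of their own.

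On GRCm38.p6, with Entrez IDs in brackets, RefSeq places Per1 (18626) at chr11:69095108-69109965, Per2 (18627) at chr1:91415977-91459351, Per3 (18628) at chr4:150997018-151044707 and Cry1 (12952) at chr10:85131700-85185054. It places Clock (12753) at chr5:76209868-76305603, Nr1d1 (217166) at chr11:98767932-98775377 and Nr1d2 (353187) at chr14:18204056-18239106, and the PAR bZip genes Dbp (13170) at chr7:45705100-45710203, Tef (21685) at chr15:81802673-81826863 and Hlf (217082) at chr11:90336535-90390917.

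RefSeq promoter windows (GRCm38.p6, 300 bases, from 250 before to 50 after an annotated start) were matched for 9 of the 10 genes, in 13 windows. The 250 bases before the start are shown for 4 of these genes, chosen from the repressing arms of the loop. Each carries a motif through which the loop is known to act. Tef, a PAR bZip gene, carries an E-box too but is given below by position only. Capitals mark a motif, read 5′ to 3′ on the gene's strand, and positions are bases from the start, negative before it.
Per1, first window (chr11:69098699-69098948, plus strand): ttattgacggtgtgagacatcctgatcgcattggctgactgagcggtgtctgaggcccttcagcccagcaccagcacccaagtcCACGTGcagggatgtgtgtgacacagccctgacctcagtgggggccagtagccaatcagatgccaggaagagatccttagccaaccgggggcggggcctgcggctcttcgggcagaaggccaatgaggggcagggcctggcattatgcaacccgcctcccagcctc
Per3 (chr4:151044666-151044915, minus strand): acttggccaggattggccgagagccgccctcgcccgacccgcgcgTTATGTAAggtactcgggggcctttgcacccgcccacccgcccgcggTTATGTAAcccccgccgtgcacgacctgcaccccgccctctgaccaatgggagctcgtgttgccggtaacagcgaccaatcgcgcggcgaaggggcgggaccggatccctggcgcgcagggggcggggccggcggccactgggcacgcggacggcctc
Cry1 (chr10:85185055-85185304, minus strand): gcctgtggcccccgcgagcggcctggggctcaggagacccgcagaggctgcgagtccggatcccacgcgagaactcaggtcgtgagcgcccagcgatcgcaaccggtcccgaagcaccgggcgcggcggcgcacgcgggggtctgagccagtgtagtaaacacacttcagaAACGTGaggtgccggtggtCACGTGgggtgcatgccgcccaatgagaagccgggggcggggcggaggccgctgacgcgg
Nr1d1 (chr11:98775378-98775627, minus strand): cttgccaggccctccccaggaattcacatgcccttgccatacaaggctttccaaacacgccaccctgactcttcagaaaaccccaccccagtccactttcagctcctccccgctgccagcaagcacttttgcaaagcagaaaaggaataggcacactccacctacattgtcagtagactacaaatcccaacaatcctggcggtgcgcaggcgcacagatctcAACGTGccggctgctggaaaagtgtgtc
The Per1 window held an E-box, CACGTG, beginning at -166. The Cry1 window held an E-box at -60 and an E-prime box (AACGTG, the other strand of CACGTT) at -79. The Nr1d1 window held an E-prime box at -28. The Per3 window held 2 copies of a D-box, TTATGTAA, at -205 and -158, the motif bound by the PAR bZip factors. Both strands were searched, and the E-box and E-prime box share 5 letters without being the same word. Of the windows not printed, both of Tef held an E-box (at -127 and -138), and that of Hlf held a cAMP response element, TGACGTCA, at -9. None of these motifs was found in the windows of Clock, Nr1d2 and Dbp, nor in the second of Per1, and the ROR element was found in none of the 13. Among 32851 promoter windows of the same length, 7.15% held the E-box, 4.68% the E-prime box, 1.06% a D-box (TTATGTAA or TTACGTAA), 1.79% the cAMP response element and 0.384% the ROR element. A match describes letters in the window and is not evidence that a factor binds there.

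Levels between genes were compared per length, with the size-factor-adjusted RPKM (reads scaled to gene length and library size) that the authors deposited. In neurons of both genotypes Clock stood first, at 3.08 ± 0.343 RPKM in P301S neurons (SD, n = 6) and 3.10 ± 0.386 in non-Tg neurons (n = 8). Tef came next in each, at 1.69 ± 0.618 RPKM in P301S neurons and 2.27 ± 1.86 in non-Tg neurons. Dbp and Cry1 were the lowest, at 0.228 ± 0.138 and 0.311 ± 0.0935 RPKM in P301S neurons and 0.317 ± 0.194 and 0.233 ± 0.0957 in non-Tg neurons. The step below Clock was larger than the SD in P301S neurons and smaller in non-Tg neurons, where Tef varied most. The middle of the order, Tef to Per1 in P301S neurons and Clock to Per2 in non-Tg neurons, held no neighbours that differed by more than their SD.

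In astrocytes the order was another. Nr1d1 led at 14.8 ± 2.76 RPKM in P301S astrocytes (n = 5) and 11.3 ± 2.68 in non-Tg astrocytes (n = 6), and its libraries did not overlap those of Tef, the next gene. Tef had 4.65 ± 2.59 RPKM in P301S and 3.73 ± 1.82 in non-Tg astrocytes, and Per3 had 3.59 ± 1.73 and 3.70 ± 0.618 RPKM in these groups. Clock, first in neurons, was ninth of 10 in P301S astrocytes at 0.840 ± 0.229 RPKM and eighth in non-Tg astrocytes at 1.41 ± 0.317. Cry1 was last in both, at 0.106 ± 0.0790 RPKM in P301S and 0.387 ± 0.226 in non-Tg.

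**Figure D1:**
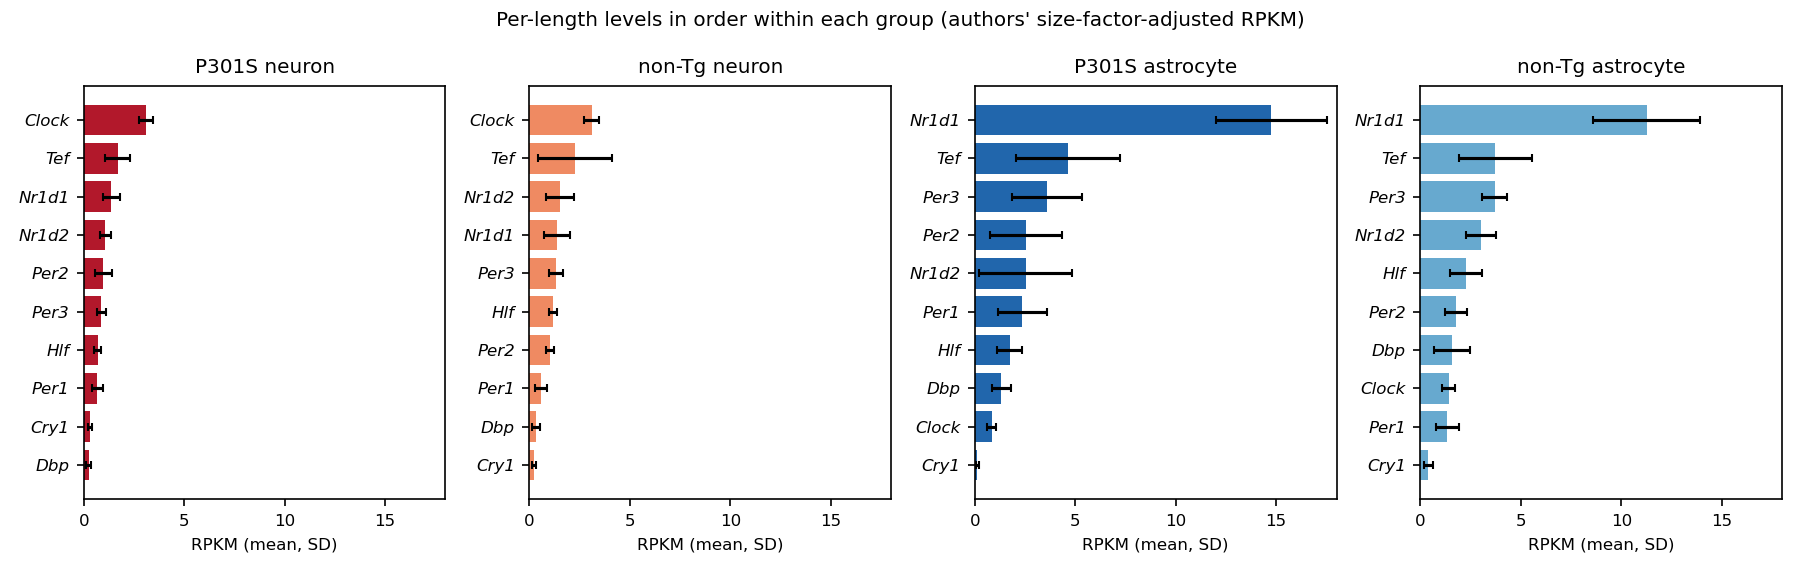
Mean level per length (RPKM as the authors deposited it, horizontal axis, linear from 0) of the 10 genes in each of the 4 groups, ordered from highest to lowest, with bars for the mean and whiskers for the SD over libraries. Clock heads both neuron groups, and Nr1d1 heads both astrocyte groups at 14.8 RPKM in P301S and 11.3 RPKM in non-Tg astrocytes.

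Each gene was next compared between neurons and astrocytes within a genotype. Counts are given as CPM, in which each library is scaled to 1000000 counts with TMM factors over all 25 libraries, and folds as log2 differences, neurons minus astrocytes, from 1 edgeR fit. A gene was called at an adjusted p under 0.05 over all genes tested. The filter on low counts passed 9 of the 10 genes in neurons and all 10 in astrocytes. Dbp passed this fit only through its astrocyte level and is therefore described apart. Of the 9 others, in each genotype 1 was higher in neurons (Clock), 7 were lower and Cry1 was not called. The median difference of the 9 was -1.55 in P301S brains, against -0.21 over all 14197 genes, and -1.17 in non-Tg brains, against -0.11. Unlike the 9, the set of all genes includes those that passed the filter through 1 cell type only. Among all genes 52.3% were called in P301S brains (23.2% higher and 29% lower in neurons) and 46.9% in non-Tg brains (21.8% higher and 25.1% lower). At an unadjusted p under 0.05 stood all 9 in P301S brains, against 57.5% of all genes, and 8 of the 9 in non-Tg brains, against 52.2%. With RLE scaling in place of TMM the median of all genes moved by 0.13 in P301S and 0.19 in non-Tg brains, towards neurons.

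These are bulk libraries, in which fewer cells of a type and less RNA per cell cannot be told apart. Of the markers that passed the filter in both cell types, all 7 for neurons were higher and all 7 for astrocytes lower in neurons of both genotypes, the direction that the labelled sorts give. The neuron markers summed to 1967 to 2750 CPM in P301S neurons and 587 to 1032 CPM in P301S astrocytes, and to 2157 to 2526 CPM in non-Tg neurons and 498 to 665 CPM in non-Tg astrocytes. None of the 8 neuron markers was at 0 in every astrocyte library. The astrocyte markers summed to 299 to 547 CPM in P301S neurons and 11823 to 24300 CPM in P301S astrocytes, and to 222 to 540 CPM in non-Tg neurons and 13701 to 22449 CPM in non-Tg astrocytes. Oligodendrocyte markers summed to 67.3 to 81.7 CPM in P301S neurons and 382 to 1293 CPM in P301S astrocytes, and to 41.2 to 85.9 CPM in non-Tg neurons and 184 to 525.6 CPM in non-Tg astrocytes. The part of RNA from other cell types in the differences below was not tested. Thinned to 1000000 counts, libraries detected 17849 to 18406 genes in P301S neurons, 11947 to 16434 in P301S astrocytes, 17526 to 18816 in non-Tg neurons and 15075 to 17881 in non-Tg astrocytes.

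Among the repressors of the loop, Nr1d1 showed the widest gap between the cell types of any of the 10 genes. It had 13.0 CPM in the lowest, 21.4 in the median and 28.2 in the highest P301S neuron library, against 271, 181, 276, 196 and 286 CPM in the 5 P301S astrocyte libraries. In non-Tg brains it had 6.94 CPM in the lowest, 19.9 in the median and 38.8 in the highest neuron library, against 144, 173 and 246 CPM in astrocytes. Every astrocyte library was above every neuron library, by 11.9-fold in the means of P301S brains and 9.29-fold in those of non-Tg brains. The log2 difference was -3.58 (SE 0.32, adjusted p = 6.27e-11) in P301S and -3.19 (SE 0.28, adjusted p = 2.23e-11) in non-Tg brains. Its paralogue Nr1d2, which encodes a second heme-binding repressor of the same family, differed less. It had 21.1 to 39.5 CPM in P301S neurons (median 25.9), against 37.4, 54.8, 53.8, 27.2 and 196 CPM in P301S astrocytes, and the groups overlapped. The log2 difference of Nr1d2 was -1.42 (SE 0.38, adjusted p = 0.00193) in P301S brains, and -0.65 (adjusted p = 0.0777) without P301S astrocyte 5, the library at 196 CPM. In non-Tg brains Nr1d2 had 28.0 to 76.3 CPM in neurons (median 33.4) and 55.7 to 119 CPM in astrocytes (median 88.3), a log2 difference of -1.21 (SE 0.33, adjusted p = 0.00274).

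All 3 Period genes, whose proteins inhibit CLOCK and BMAL1, were lower in neurons. Per3 had 19.1 to 45.5 CPM in P301S neurons (median 36.6), against 95.7, 210, 69.5, 246 and 184 CPM in P301S astrocytes. In non-Tg brains it had 31.5 to 72.7 CPM in neurons (median 50.4) and 118 to 202 CPM in astrocytes (median 169). The groups did not overlap in either genotype, and the log2 difference was -2.17 (SE 0.29, adjusted p = 2.12e-07) in P301S and -1.65 (SE 0.26, adjusted p = 1.99e-06) in non-Tg brains. Per1 had 14.3 to 45.5 CPM in P301S neurons (median 22.1), against 72.1, 173, 101, 119 and 36.3 CPM in P301S astrocytes. In non-Tg brains Per1 had 11.1 to 47.2 CPM in neurons (median 17.8) and 25.1 to 95.6 CPM in astrocytes (median 55.9). It was called lower in both genotypes, with a log2 difference of -1.96 (SE 0.41, adjusted p = 0.000139) in P301S and -1.42 (SE 0.36, adjusted p = 0.00132) in non-Tg brains, though libraries overlapped. Per2 had 16.2 to 52.4 CPM in P301S neurons (median 30.5), against 89.5, 199, 113, 40.0 and 37.0 CPM in P301S astrocytes. Its log2 difference was -1.55 (SE 0.37, adjusted p = 0.00073) in P301S brains. In non-Tg brains Per2 had 25.1 to 48.8 CPM in neurons (median 33.2) and 31.8 to 91.2 CPM in astrocytes (median 66.8), a log2 difference of -0.98 (SE 0.33, adjusted p = 0.0134). That call was lost with a covariate for sex markers (adjusted p = 0.0538) and without non-Tg astrocyte 1 (adjusted p = 0.0571).

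Cry1, the partner of the PER proteins in repression, was not called between cell types and stood low throughout. It had 3.34 to 8.23 CPM in P301S neurons (median 5.26), against 1.41, 4.09, 2.24, 2.27 and 0 CPM in P301S astrocytes, which came from 5, 13, 6, 3 and 0 counts. In non-Tg brains it had 1.59 to 5.87 CPM in neurons (median 4.30) and 1.97 to 12.7 CPM in astrocytes (median 8.05). A count of 3, the limit that a count of 0 allows, corresponds to 0.571 to 2.27 CPM over the libraries on the same scale, so several of these values lie near it. The log2 difference was 1.40 (SE 0.63, adjusted p = 0.0592) in P301S and -0.93 (SE 0.52, adjusted p = 0.149) in non-Tg brains. In P301S brains it was called higher in neurons with RLE scaling, with DESeq2, with a filter at 1 CPM and without P301S astrocyte 2, and in non-Tg brains it was called lower in neurons with voom (adjusted p = 0.0402).

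Clock, of the activating arm, was the 1 gene called higher in neurons. It had 161 CPM in the lowest, 172 in the median and 211 in the highest P301S neuron library, against 77.7, 39.4, 59.8, 46.1 and 47.5 CPM in P301S astrocytes. In non-Tg brains it had 145, 180 and 196 CPM in neurons, lowest to highest, against 59.6, 90.9 and 120 CPM in astrocytes. Neuron and astrocyte libraries did not overlap in either genotype. Neurons had 3.31 times the mean CPM of astrocytes in P301S brains and 1.94 times in non-Tg brains, and the log2 difference was 1.72 (SE 0.22, adjusted p = 4.81e-08) and 0.95 (SE 0.19, adjusted p = 7.22e-05).

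Of the PAR bZip genes, Hlf and Tef were called lower in neurons of both genotypes, and Dbp is described by its levels. Dbp, a direct clock output gene, had 2 to 11 counts in P301S neuron libraries, or 0.955 to 6.20 CPM (median 3.03), against 25.9, 28.7, 16.4, 20.4 and 10.8 CPM in P301S astrocytes. In non-Tg brains it had 1.90 to 10.7 CPM in neurons (median 3.52) and 13.0 to 44.3 CPM in astrocytes (median 18.3). The fitted log2 difference of Dbp was -2.66 in P301S and -2.41 in non-Tg brains, given as a description with no test, because the filter passed Dbp only through the astrocytes, where it is high. Hlf had 13.6 to 27.8 CPM in P301S neurons (median 23.1), against 57.2, 52.6, 90.8, 77.0 and 34.4 CPM in P301S astrocytes, with no overlap. In non-Tg brains Hlf had 24.2 to 42.5 CPM in neurons (median 38.6) and 29.1 to 108 CPM in astrocytes (median 86.8), where 1 astrocyte library lay among the neurons. Its log2 difference was -1.49 (SE 0.31, adjusted p = 0.000138) in P301S and -1.17 (SE 0.27, adjusted p = 0.000508) in non-Tg brains. Tef had 34.2 to 88.5 CPM in P301S neurons (median 48.0), against 92.6, 75.0, 133, 228 and 292 CPM in P301S astrocytes, a log2 difference of -1.61 (SE 0.42, adjusted p = 0.00161). In non-Tg brains Tef had 34.2 to 196 CPM in neurons (median 49.4) and 56.2 to 217 CPM in astrocytes (median 123), a log2 difference of -0.92 (SE 0.37, adjusted p = 0.0376). That last call was lost under 16 of 23 other settings.

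Separation of the groups was common among all genes, since 29.7% of genes had neuron and astrocyte libraries that did not overlap in P301S brains and 31.2% in non-Tg brains. These shares include genes that passed the filter through 1 cell type only. Of the 9 genes that passed the filter in both cell types, Per3, Clock, Nr1d1 and Hlf did not overlap in P301S brains, and Per3, Clock and Nr1d1 did not in non-Tg brains. With the number of genes detected as a covariate, 2 of the 9 were called lower in P301S neurons (Per3 and Nr1d1) in place of 7. The differences of the other 5 kept their sign while their SE grew. Per1 had -1.90 (SE 0.75, adjusted p = 0.0634), Per2 -1.79 (SE 0.68, adjusted p = 0.0521), Nr1d2 -1.87 (SE 0.80, adjusted p = 0.0896), Tef -1.40 (SE 0.84, adjusted p = 0.238) and Hlf -1.07 (SE 0.55, adjusted p = 0.159). Genes detected and cell type move together in P301S brains, and their parts cannot be told apart there.

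**Figure D2:**
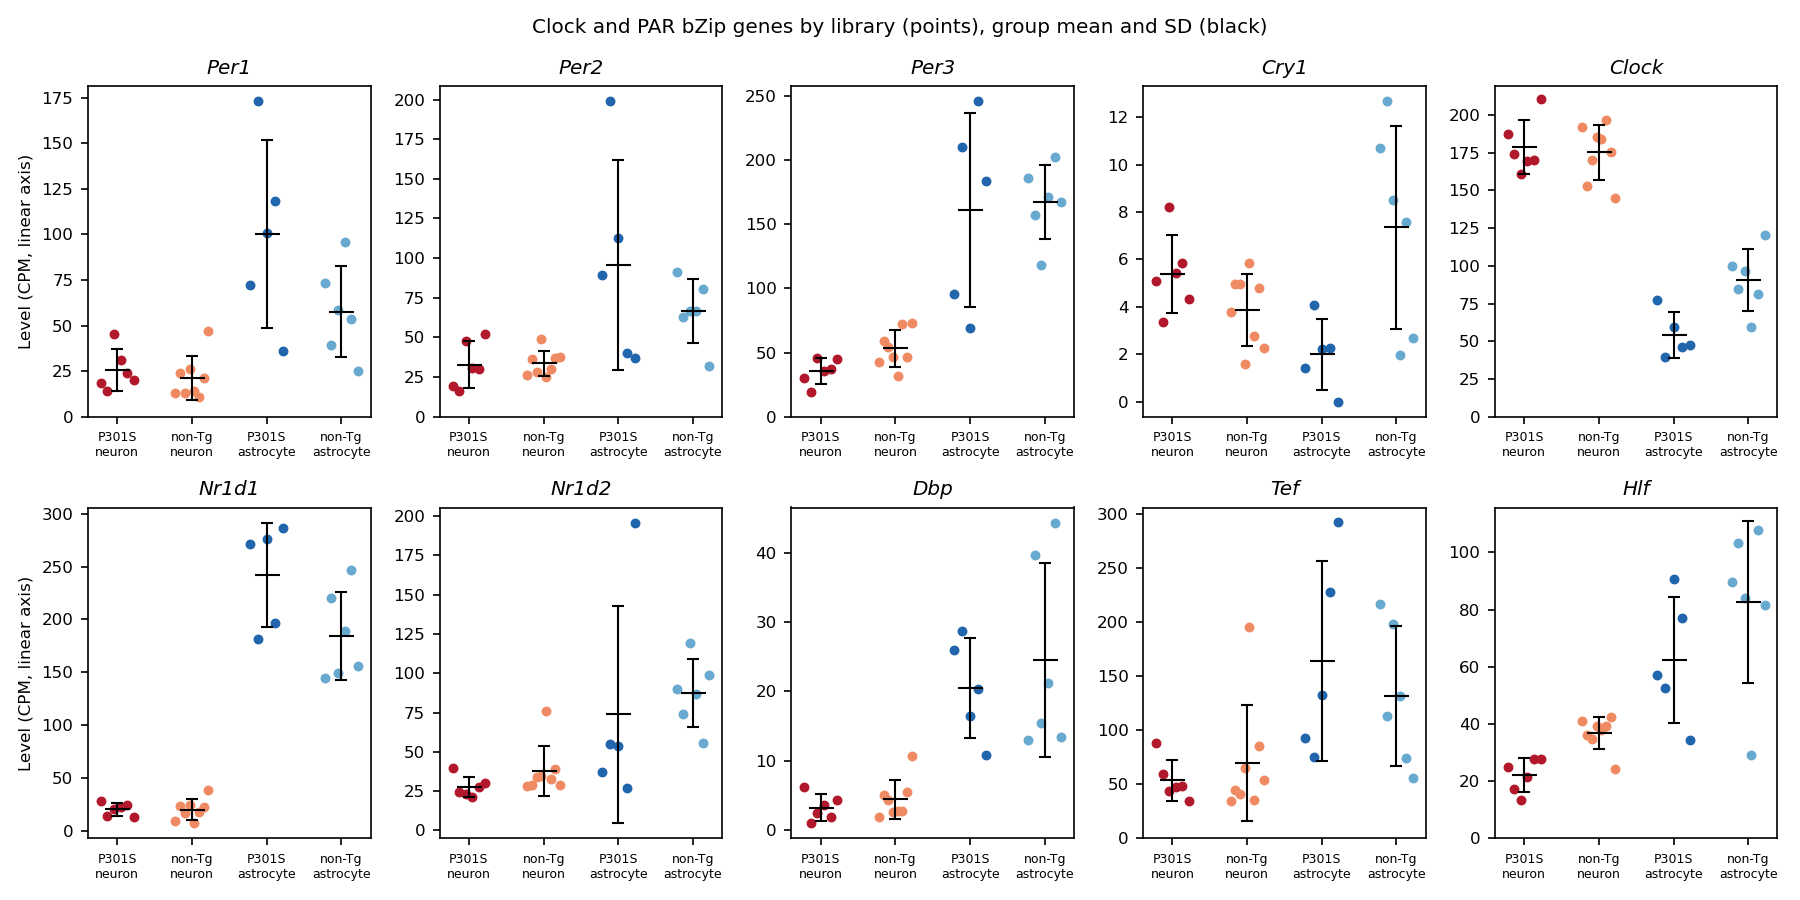
Level of each gene (CPM, vertical axes linear and scaled per gene) in every library, with the group mean and SD in black; the groups run P301S neurons, non-Tg neurons, P301S astrocytes, non-Tg astrocytes. Nr1d1 and Per3 separate astrocytes from neurons in both genotypes, and Clock does so in the other direction.

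**Figure D3:**
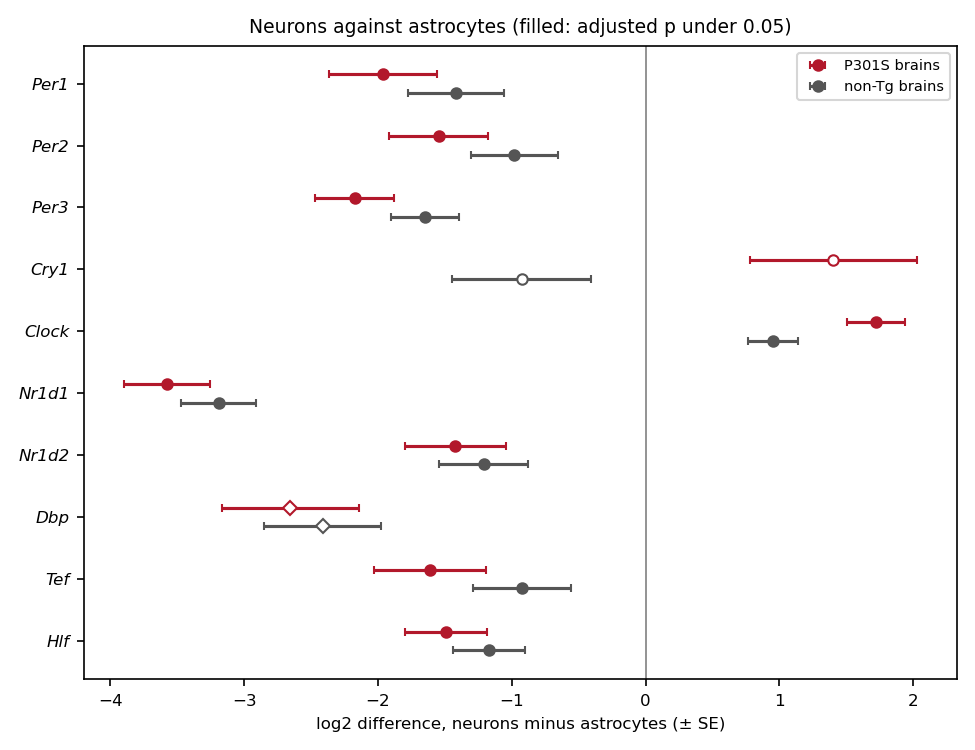
log2 difference, neurons minus astrocytes, with its SE for each gene, with P301S brains drawn above non-Tg brains; filled points passed an adjusted p of 0.05, and open diamonds mark Dbp, which passed the filter on low counts only through astrocytes and is shown with no call. Clock alone lies to the right of 0 in both genotypes, and Cry1 is open in both.

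A further list of 27 clock and clock-linked genes differed in both directions. The filter passed 21 of them within both cell types, and 5 more entered the joint fit through only 1 cell type and are left out of the counts. Of the 21, in P301S brains 3 were higher and 9 lower in neurons (median log2 difference -0.67), and in non-Tg brains 2 were higher and 8 lower (median -0.50). Of all genes, 23.2% were called higher and 29% lower in neurons in P301S brains, and 21.8% and 25.1% in non-Tg brains. Rora and Rorb, which encode activators that compete with the REV-ERBs for the same element, were lower in neurons in both genotypes. Rorb had a log2 difference of -4.75 (SE 0.37) in P301S and -5.68 (SE 0.34) in non-Tg brains, and averaged 10.3 ± 6.98 CPM in P301S neurons and 276 ± 63.1 CPM in P301S astrocytes. Rora had -2.02 (SE 0.25) in P301S and -2.53 (SE 0.22) in non-Tg brains. Ppara, a nuclear receptor of fatty acid metabolism, passed the filter only through astrocytes. It averaged 0.945 ± 1.04 CPM in P301S neurons and 17.1 ± 10.2 CPM in P301S astrocytes, and 0.397 ± 0.376 CPM in non-Tg neurons and 28.0 ± 8.67 CPM in non-Tg astrocytes. Cry2, the other cryptochrome gene, had -1.55 (SE 0.34, adjusted p = 0.00025) in P301S and -1.53 (SE 0.30, adjusted p = 5.52e-05) in non-Tg brains. Bhlhe40 and Bhlhe41, which encode the E-box repressors DEC1 and DEC2, had -1.98 (SE 0.35) and -1.26 (SE 0.30) in P301S and -1.66 (SE 0.31) and -0.92 (SE 0.26) in non-Tg brains. Usp2 and Noct were called lower in neurons of both genotypes too.

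The genes of the 21 called higher in neurons of both genotypes were Arntl2 and Csnk1a1. Nfil3 and Wee1 passed the filter only through neurons and are described by their levels. Nfil3 encodes the repressor that competes with the PAR bZip factors at D-boxes. It averaged 7.90 ± 3.03 CPM in P301S neurons and 5.22 ± 1.55 CPM in non-Tg neurons, and was at 0 in 4 of 5 P301S and 4 of 6 non-Tg astrocyte libraries. Wee1 averaged 6.16 ± 3.66 CPM in P301S neurons and 6.00 ± 2.48 CPM in non-Tg neurons, and was at 0 in 3 of 5 P301S and 2 of 6 non-Tg astrocyte libraries. Arntl2 had a log2 difference of 1.66 (SE 0.63) in P301S and 2.12 (SE 0.57) in non-Tg brains, and Csnk1a1, a casein kinase gene, 0.89 (SE 0.23) and 0.76 (SE 0.21). Arntl, which encodes BMAL1, averaged 27.8 ± 6.12 CPM in P301S neurons and 66.2 ± 49.9 CPM in P301S astrocytes, and 22.1 ± 5.11 CPM in non-Tg neurons and 41.6 ± 20.4 CPM in non-Tg astrocytes. It was called lower in P301S neurons (log2 difference -1.24, SE 0.46, adjusted p = 0.0232) and not in non-Tg neurons (-0.90, SE 0.41, adjusted p = 0.0687). Npas2, a paralogue of Clock, was called lower in non-Tg neurons (-0.99, SE 0.28, adjusted p = 0.0044) and had -0.67 (SE 0.32, adjusted p = 0.0796) in P301S brains. Ciart, a repressor of CLOCK and BMAL1, passed only through astrocytes, and averaged 5.51 ± 4.97 CPM in P301S neurons and 6.51 ± 7.35 CPM in P301S astrocytes, and 5.19 ± 1.97 CPM in non-Tg neurons and 8.19 ± 4.07 CPM in non-Tg astrocytes. Nono and Fbxw11 were called, higher and lower in neurons, in P301S brains.

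The series asks how the P301S transgene changes gene expression in each cell type. In neurons none of the 9 tested genes was called or had groups that did not overlap between genotypes by edgeR, where 0.00913% of all 10951 genes were called (1 gene, higher in P301S) and 0.21% did not overlap. At an unadjusted p under 0.05 stood 2 of the 9, Hlf and Per3, against 7.73% of all genes. DESeq2 called 0 of the 9 and limma voom called 1, Hlf. The median of the 9 log2 differences, P301S minus non-Tg, was -0.05, against -0.02 over all genes tested.

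Hlf, which encodes the PAR bZip factor HLF, had the largest difference in neurons. It had 24.8, 17.2, 13.6, 21.4, 27.8 and 27.7 CPM in the 6 P301S neuron libraries, against 40.9, 36.0, 34.8, 39.3, 37.9, 39.4, 42.5 and 24.2 CPM in the 8 non-Tg neuron libraries. All 6 P301S libraries were below the non-Tg mean, and 3 of them were below the lowest non-Tg library, non-Tg neuron 8. The log2 difference was -0.74 (SE 0.18, unadjusted p = 0.00071, adjusted p = 0.208 by edgeR). Non-Tg neuron 5 and 8 carry sample identifiers from a different range than the other 23 libraries, and without these 2 the log2 difference was -0.80 (adjusted p = 0.0434). With voom, run with quality weights per library, it was -0.78 (adjusted p = 0.0265). Over the settings tried, leave-outs included, the log2 difference of Hlf ranged from -0.81 to -0.63 and its adjusted p from 0.0265 to 1.

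Per3 had 30.5, 19.1, 45.5, 36.0, 37.2 and 45.1 CPM in P301S neurons, against 31.5 to 72.7 CPM in non-Tg neurons (median 50.4). All 6 P301S libraries were below the non-Tg mean, with a log2 difference of -0.59 (SE 0.21, unadjusted p = 0.00922, adjusted p = 0.472). Nr1d2 had a log2 difference of -0.46 (SE 0.24, adjusted p = 0.68), with 4 of 6 P301S libraries below the lowest of the non-Tg libraries. Cry1 had 0.49 (SE 0.31, adjusted p = 0.745), Tef -0.39 (SE 0.35, adjusted p = 0.836) and Per1 0.22 (SE 0.31, adjusted p = 0.902). Clock, Per2 and Nr1d1 had log2 differences of 0.02 (SE 0.11), -0.05 (SE 0.23) and -0.01 (SE 0.30). The signs of Clock, Per2, Nr1d1, Tef and Per1 changed between settings. Clock was the most even of the genes, at 179 ± 17.9 CPM in P301S neurons and 175 ± 18.3 CPM in non-Tg neurons.

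Dbp was too low in neurons for that fit. On the log2(CPM + 1) scale its mean difference, P301S minus non-Tg neurons, was -0.35 (exact permutation test, 2-sided, 3003 arrangements, p = 0.344), and -0.22 without non-Tg neuron 5 and 8 (exact permutation, 924 arrangements, p = 0.530). This scale understates the change of a gene at so few counts. Per1 is also driven by neuronal activity, so a list of 15 immediate early genes was read beside it. None of the 9 tested in neurons was called, and 3 had an unadjusted p under 0.05, against 7.73% of all genes. The list summed to 119 to 289 CPM in P301S neurons (median 265) and 122 to 277 CPM in non-Tg neurons (median 162). Microglial and myeloid markers summed to 82.8 to 394 CPM in P301S neurons and 30.6 to 179 CPM in non-Tg neurons, with 0 of 7 tested markers called and 1 at an unadjusted p under 0.05. Astrocyte markers summed to 299 to 547 CPM in P301S neurons (median 456) and 222 to 540 CPM in non-Tg neurons (median 305). All 7 tested astrocyte markers had a log2 difference above 0 (median 0.73), with 0 called and 3 at an unadjusted p under 0.05. The share of all genes for both marker lists is the same 7.73%. The mitochondrial share of counts was 1.11 to 2.40% in P301S and 0.564 to 1.52% in non-Tg neurons. The part of such RNA in the neuron values was not tested.

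In astrocytes none of the 10 genes was called between genotypes or had groups that did not overlap. Of all 12130 genes tested 0.544% were called (0.519% higher and 0.0247% lower in P301S), and 2.14% did not overlap. Clock alone had an unadjusted p under 0.05, a threshold that 13.4% of all genes passed, and DESeq2 and voom called 0 of the 10. The median log2 difference of the 10 was -0.17, against 0.13 over all genes tested.

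Clock had 77.7, 39.4, 59.8, 46.1 and 47.5 CPM in P301S astrocytes, against 99.9, 85.0, 96.8, 59.6, 81.4 and 120 CPM in non-Tg astrocytes. All 5 P301S libraries were below the non-Tg mean and 3 were below the lowest non-Tg library, with a log2 difference of -0.75 (SE 0.34, unadjusted p = 0.0379, adjusted p = 0.339). With the number of genes detected as a covariate Clock had -0.36 (SE 0.49, adjusted p = 0.994). Cry1 had 1.41, 4.09, 2.24, 2.27 and 0 CPM in P301S astrocytes, against 10.7, 12.7, 8.51, 1.97, 7.58 and 2.68 CPM in non-Tg astrocytes. Again all 5 P301S libraries were below the non-Tg mean, with a log2 difference of -1.87 (SE 0.92, unadjusted p = 0.0546, adjusted p = 0.383). Cry1 passed the filter mainly through non-Tg astrocytes, with 33, 40, 16, 4, 26 and 8 counts there and 5, 13, 6, 3 and 0 in P301S astrocytes. It stayed in 7 of the 11 fits with a library left out, so its genotype values in astrocytes are a description. Clock and Cry1 were both called lower in a fit of all 25 libraries, which takes 1 spread per gene from both cell types. There Clock had -0.74 (adjusted p = 0.0202) and Cry1 -1.86 (adjusted p = 0.0486), the latter at the same low counts and likewise a description. That fit called 1682 genes in this comparison, in place of 66. Without P301S astrocyte 3 and 4, the libraries with the fewest genes detected, Clock had -0.74 (adjusted p = 0.342) and Cry1 -1.98 (adjusted p = 0.424), and none of the 10 was called. Oligodendrocyte markers summed to 382 to 1293 CPM in P301S and 184 to 525.6 CPM in non-Tg astrocytes, and oligodendrocyte precursor markers to 41.5 to 512 CPM and 82.4 to 162 CPM. None of the 6 and 4 tested markers of these lists was called, with 3 and 1 at an unadjusted p under 0.05, against 13.4% of all genes. Microglial and myeloid markers summed to 109 to 238 CPM in P301S and 59.2 to 126 CPM in non-Tg astrocytes. P301S astrocytes also had fewer genes detected (11947 to 16434, against 15075 to 17881) and a mitochondrial share of 3.59 to 11.3% of counts, against 2.26 to 5.55%, and the part of these in the genotype differences was not tested.

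Per1 had the largest positive difference in astrocytes. It had 72.1, 173, 101, 119 and 36.3 CPM in P301S astrocytes, against 73.7, 39.6, 58.5, 95.6, 53.4 and 25.1 CPM in non-Tg astrocytes, a log2 difference of 0.79 (SE 0.42, adjusted p = 0.413). Without P301S astrocyte 2, the library at 173 CPM, it was 0.51 (adjusted p = 0.575). Per2 had 0.51 (SE 0.42, adjusted p = 0.624), and 0.07 (adjusted p = 0.955) without P301S astrocyte 2. Nr1d1 had 0.38 (SE 0.25, adjusted p = 0.521). For Nr1d1, 4 of 5 P301S libraries were above the non-Tg mean and 3 were above the highest non-Tg library. Hlf, at -0.74 in neurons, had -0.42 (SE 0.38, adjusted p = 0.667) in astrocytes. Tef, Nr1d2, Dbp and Per3 had log2 differences of 0.29 (SE 0.39), -0.27 (SE 0.44), -0.27 (SE 0.55) and -0.07 (SE 0.32), and the sign of each of these 4 changed between settings. Nr1d2 was spread widest, since 4 of 5 P301S libraries were below the lowest non-Tg library and the fifth was above the highest.

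**Figure D4:**
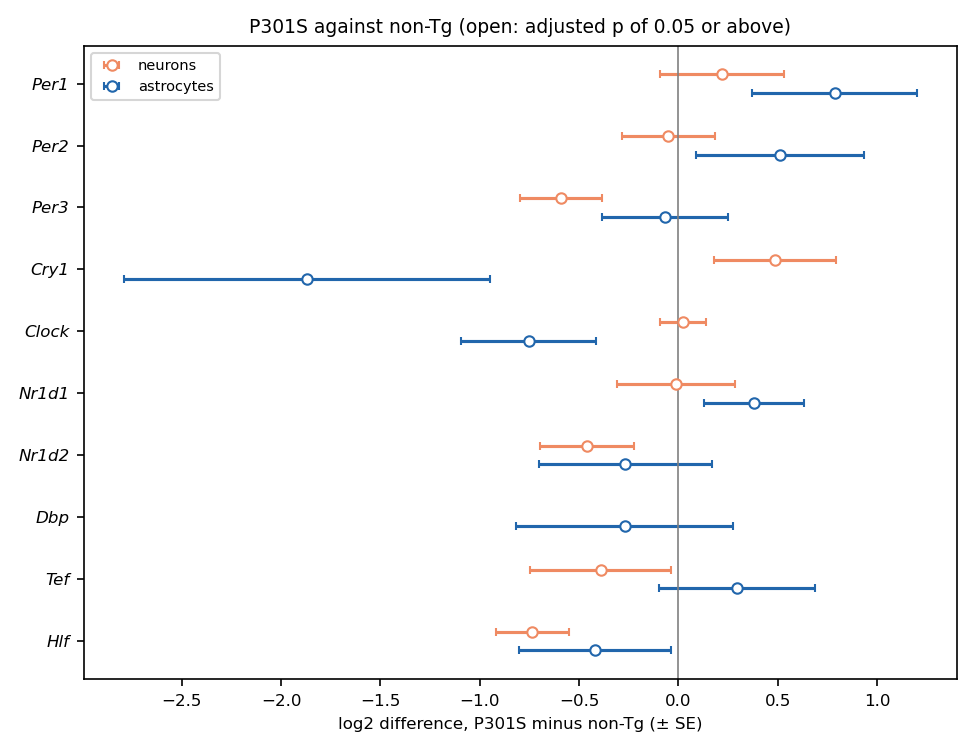
log2 difference, P301S minus non-Tg, with its SE, for each gene in neurons and astrocytes; all points are open because none passed an adjusted p of 0.05, and Dbp has no neuron value because the filter on low counts removed it. Cry1 in astrocytes lies farthest left, at -1.87. Hlf at -0.74 in neurons and Clock at -0.75 in astrocytes are among several points left of 0 by more than their SE.

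Whether the genotype effect differed between cell types was tested in the fit of all 25 libraries, as the effect in astrocytes minus the effect in neurons. Dbp passed the filter of this fit only through astrocytes, and its value of 0.24 is a description. None of the 9 other genes was called, where 0.394% of 14197 genes were (0.204% above 0 and 0.19% below). At an unadjusted p under 0.05 stood 2 of the 9, against 14.8% of all genes. These were Cry1 (-2.33, SE 0.82, unadjusted p = 0.00734, adjusted p = 0.154) and Clock (-0.77, SE 0.28, unadjusted p = 0.00885, adjusted p = 0.164). The Cry1 value rests on 5, 13, 6, 3 and 0 counts in P301S astrocytes and is a description. DESeq2 and voom called 0 of the 9. Clock was called without P301S astrocyte 1 (-0.94, adjusted p = 0.0472). The other genes tested lay between 0.21 and 0.69 with none called. Without P301S astrocyte 3 and 4 Cry1 had -2.40 (adjusted p = 0.141), Clock -0.73 (adjusted p = 0.172) and Hlf -0.03 in place of 0.33, with none called. Of the further 27 clock-linked genes, none was called between genotypes among 23 tested in neurons and 24 in astrocytes, nor in the test of the difference among 26. Of those 26, 5 entered that fit through only 1 cell type. At an unadjusted p under 0.05 stood 0 in neurons, 3 in astrocytes and 1 in the test of the difference. The shares of all genes under that threshold were 7.73%, 13.4% and 14.8%.

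The genes were last compared for how they moved together from library to library, since the time of day at collection is not in the labels. Genotype means were taken away from log2 CPM, and each pair was tested by permutation within genotype, with adjustment over the pairs of a cell type. In 14 neuron libraries none of 36 pairs was called by r or rho, and 10 had an unadjusted p under 0.05. The share of all gene pairs under that threshold was not computed, so the 10 are not read as a result. Pearson's r had a median of -0.03 and ran from -0.68 to 0.84. The strongest pair was Nr1d2 with Tef (r = 0.84, permutation p = 0.00393, adjusted p = 0.109; rho = 0.57, permutation p = 0.0430). Leaving out the 2 libraries farthest from the median, non-Tg neuron 5 among them, r was 0.62. Per1 had a positive r with Nr1d1 (0.65, rho = 0.63) and Per2 (0.61, rho = 0.74), and a negative r with Clock (-0.68, rho = -0.61). Without the 2 farthest libraries these were 0.56, 0.59 and -0.46. Per2 with Per3 had r = 0.65 (0.43 without the 2 farthest), and Clock with Hlf had r = 0.67 (0.59). None of these passed the adjustment, with adjusted permutation p between 0.109 and 0.11. Of 10950 genes ranked by r with Per1, 13.7% were at least as close as Nr1d1 and 16.4% as Per2. From the negative end, 11.7% were at least as far as Clock. The share was 0.548% for Nr1d2 with Tef, 1.05% for Per2 with Per3 and 5.50% for Clock with Hlf. Ranked by the second gene of each pair, the shares ran from 0.237 to 10.2%. The remaining pairs under an unadjusted p of 0.05 were Per3 with Tef (r = -0.59, -0.77 without the 2 farthest) and Clock with Nr1d1 (-0.60, -0.38). Further ones were Per3 with Nr1d1 (0.54, 0.31 without the 2 farthest) and Per1 with Hlf (-0.56), which changed sign to 0.19. Their adjusted permutation p lay between 0.125 and 0.177.

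In 11 astrocyte libraries none of 45 pairs was called by r or rho, and 4 had an unadjusted p under 0.05. Here too the share of all gene pairs under that threshold was not computed. The median r was -0.06, and r ran from -0.64 to 0.73. Cry1 with Hlf had r = 0.73 (rho = 0.41, 0.59 without the 2 farthest), at Cry1 counts of 0 to 40. Per1 with Per2 had r = 0.69 (rho = 0.66, 0.35 without the 2 farthest). Nr1d2 with Dbp had a negative r (-0.64, rho = -0.80, -0.74 without the 2 farthest; permutation p = 0.0108 for r, adjusted p = 0.286). For Dbp, as an output gene, the 5 genes with the most alike pattern over the 11 astrocyte libraries were Wipf3 (r = 0.90), Gne (0.90), Cfap74 (0.86), Gtf3c4 (0.84) and Stx6 (0.84). None of the other 9 clock and PAR bZip genes was among them. Of 12129 genes ranked by r with Dbp, Cry1 was at place 645, Per2 at 962 and Nr1d1 at 1123, while Nr1d2 was at place 156 and Tef (r = -0.50) at place 559 from the negative end. These places describe 11 libraries of both genotypes that differ in depth, genes detected and mitochondrial share. Only the genotype means were taken away, and no test was made of the places.

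**Figure D5:**
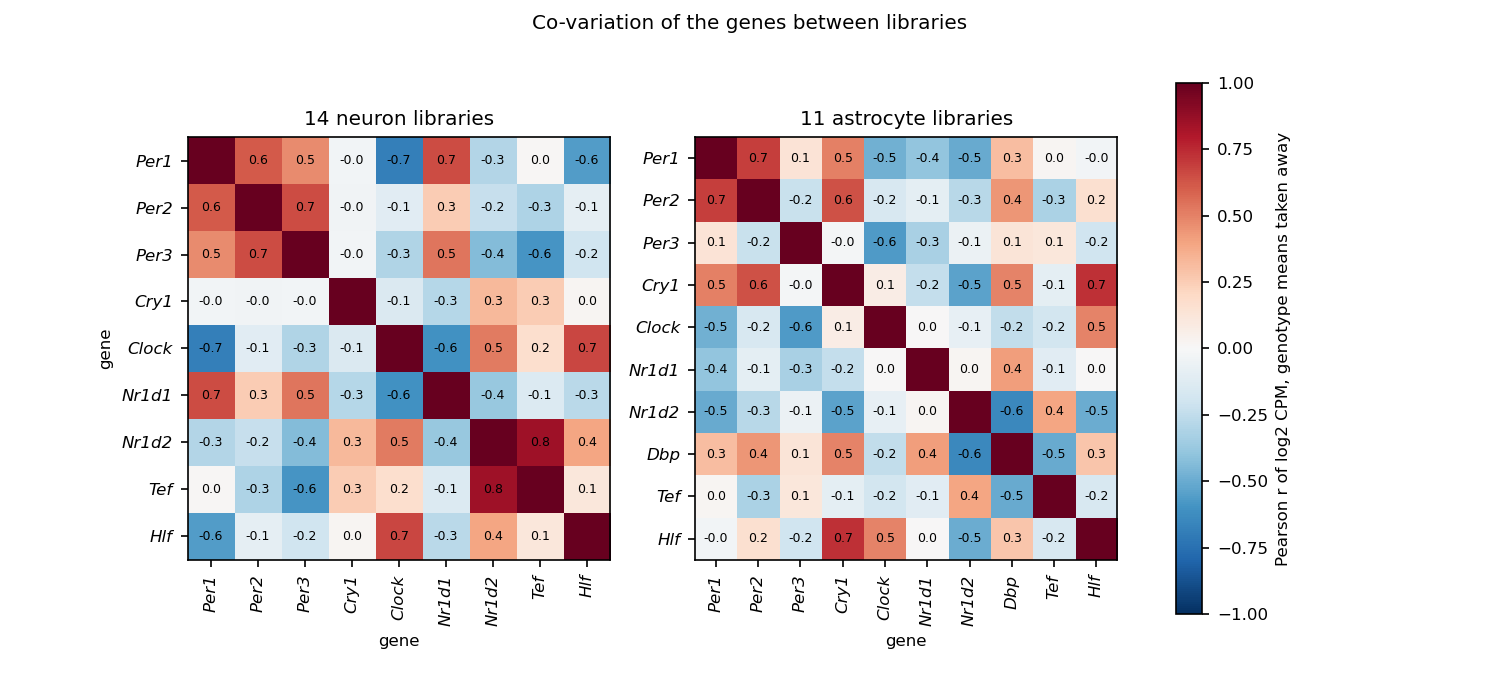
Pearson's r between genes over 14 neuron libraries (left, 9 genes tested there) and 11 astrocyte libraries (right, 10 genes), of log2 CPM with the genotype means taken away; red is positive and blue negative, on a scale of -1 to 1. The strongest cell is Nr1d2 with Tef in neurons at 0.84, and no pair passed the adjustment in either cell type.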

How the data were processed

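The deposited files give, per the file headers, counts of uniquely aligned reads for each gene, and size-factor-adjusted RPKM that the authors computed. Checked over 2859 genes, that RPKM is the count scaled by a factor of the sample and a factor of the gene (largest log deviation 6.88e-15). GSNAP and the build GRCm38 are named in the submitters' processing notes. Versions and other steps are not stated there. Libraries held 1245964 to 4453555 counts. 5479 of 36528 gene IDs had no symbol (3.30% of counts) and stayed in the tests. The lowest chi-square per degree of freedom between libraries of 1 group was 1.84, so none was counted as a repeat.

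Counts were tested by quasi-likelihood in edgeR 4.0.16 under R 4.3.3 (F test, TMM, filterByExpr with a minimum count of 10, robust), within 1 cell type for genotype and over all 25 libraries for the rest, with Benjamini-Hochberg adjustment over all genes. The SE is the log2 difference over the square root of F. Other settings were RLE scaling, DESeq2 1.42.0, other filters, covariates and left-out libraries. A further setting was voom with quality weights per library in limma 3.58.1, named voom throughout. Chosen after seeing the data were the exact test of Dbp, the co-variation without non-Tg neuron 5 and 8, and fits without the 2 P301S astrocyte libraries with the fewest genes detected. Co-variation used log2 CPM with a prior count of 2 and 100000 permutations. The edgeR fits with the main settings were tested on simulated data, with the same spread for all genes. The other settings and the permutation tests were not tested in this way. All 10 genes are named throughout, with 9 further clock genes in any case and others where called; members and lists were chosen with earlier results of these data known. Values of some listed genes are not reported here. Cd11b+ cells are not analysed here. Floors of 3 counts cover counting error only.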

Additional observations from a re-analysis of the deposited data

Results flagged for a closer look

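In 7 of 40 sets of libraries (10 genes in 4 groups), the highest or lowest library stood apart from the rest of its group by Dixon's criterion at 95%, which chance meets in about 1 of 20 groups. Non-Tg neuron 8 and non-Tg neuron 5, both with sample identifiers from a different range, accounted for 5 of the 7. Non-Tg neuron 8 was highest for Per1 at 47.2 CPM, with the next library at 26.0, and highest for Dbp at 10.7 CPM, with the next at 5.48. The same library was lowest for Hlf at 24.2 CPM, with the next at 34.8. Non-Tg neuron 5 was highest for Nr1d2 at 76.3 CPM, with the next at 39.1, and highest for Tef at 196 CPM, with the next at 85.7. P301S astrocyte 5 was highest for Nr1d2 at 196 CPM, with the next at 54.8. Non-Tg astrocyte 4 was lowest for Hlf at 29.1 CPM, with the next at 81.6.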

How the results depend on the processing

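No paired analysis was possible because the labels give libraries no replicate numbers and do not tie neuron and astrocyte libraries to animals. Of 253 recomputed counts of called genes, 244 stayed within 1.5 times the reported count and 9 did not. Genes called lower in P301S neurons numbered 1 in place of 0 (Hlf) with voom and without non-Tg neuron 5 and 8. Genes called lower in P301S astrocytes numbered 2 in place of 0 (Clock and Cry1) with all 25 libraries in 1 fit. In the difference between cell types the count called lower ranged from 0 to 1 over left-out libraries. In P301S brains the count higher in neurons was 2 in place of 1 with RLE scaling, DESeq2 and a filter at 1 CPM, and ranged from 1 to 2 over left-out libraries. With the genes-detected covariate the count lower there was 3 in place of 8 including Dbp, which passed the filter only through astrocytes, and 2 in place of 7 without it. Co-variation gave 0 called pairs under every setting run.

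Of 1202 recomputed values of single genes, 1118 kept their direction and side of the threshold, 24 lost a call, 10 gained one and 50 changed sign, all 50 in genotype effects that were not called. In neurons Per2 had 0.017 with sex markers and 0.18 with glial markers (left-out libraries -0.23 to 0.084), and Clock -0.023 with voom, -0.014 with sex markers and -0.080 with glial markers (-0.027 to 0.050). Nr1d1 had 0.0077 with DESeq2, 0.22 with voom, 0.11 without non-Tg neuron 5 and 8, 0.16 with sex markers, 0.059 with glial markers and 0.0091 in the fit of 25 (-0.14 to 0.24). Tef had 0.050 with voom and 0.088 without non-Tg neuron 5 and 8 (-0.60 to 0.063), and Per1 ranged from -0.025 to 0.54 over left-out libraries. In astrocytes sex markers gave Per3 0.031, Dbp 0.28 and Tef -0.73, glial markers gave Per3 0.54, Nr1d2 0.0061, Dbp 0.39 and Tef -0.27, and voom gave Dbp 0.025 and Tef -0.059. Nr1d2 had 0.36 with genes detected and 0.10 without P301S astrocyte 3 and 4, and Per3 ranged from -0.27 to 0.13 over left-out libraries. In the difference between cell types Nr1d2 had -0.37 with voom, -0.0050 without non-Tg neuron 5 and 8 and -0.12 with sex markers (-0.55 to 0.42), Dbp -0.057 without non-Tg neuron 5 and 8 (-0.12 to 0.52), Tef -0.027 with voom and -0.36 with sex markers, and Hlf -0.030 without P301S astrocyte 3 and 4. The cause of these changes was not tested.

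Over all genes, the count called ran from 0 to 41 in neurons (1 reported), 0 to 1682 in astrocytes (66), 10 to 469 in the difference (56; 9 to 522 over left-out libraries), 3445 to 9586 in P301S brains (7420) and 5930 to 8638 in non-Tg brains (6659). Depth limits Dbp, with 2 to 11 counts in P301S neurons, and Cry1, with 0 to 13 counts in P301S astrocytes.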
